A study of Mus musculus with 18 samples.

Results

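The adult alpha globin copies Hba-a1 and Hba-a2, the adult beta globin copies Hbb-b1 and Hbb-b2, and Alas2 are described here in cultured mouse mesenchymal cells and in tumors grown from them. They were taken by their listed symbols and are 5 of the 20325 genes of the deposited tables. They had been picked with their levels in the tumors and in the cultured K36M lines known, so those levels are a description and were not tested. The choice covered all groups, those with knockdown of the H3K36 methyltransferases included, and earlier results of these data were known. The level of Hba-a1 after knockdown is therefore a description too.

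Alpha and beta globin chains pair to form hemoglobin, the oxygen carrier of red blood cells. Each chain binds heme, which is made from glycine and succinyl-CoA in mitochondria and cytosol. Alas2 encodes the erythroid form of the first enzyme of heme synthesis, and Alas1 its form in other tissues. In the mouse the alpha globin genes stand in a cluster beside Nprl3, a gene whose introns hold distant enhancers of the cluster, while the beta globin genes form a cluster on another chromosome. Circulating mouse red cells have no nucleus, and the youngest of them, the reticulocytes, still carry globin and Alas2 RNA.

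The cells were C3H10T1/2, a multipotent mesenchymal line made from mouse embryos of the C3H strain, at passage 10 to 15. One line stably expressed wild-type histone H3.3 with a FLAG-HA tag (H3.3 wild-type cells, n = 2), one expressed tagged H3.3 with lysine 36 replaced by methionine (H3.3K36M cells, n = 2), and one expressed tagged H3.1 with the same substitution (H3.1K36M cells, n = 2). Parental cells received either a scramble siRNA (control siRNA cells, n = 3) or siRNAs against the methyltransferases Nsd1, Nsd2 and Setd2 (HMT siRNA cells, n = 3). H3.3K36M tumors (n = 6) came from 2000000 H3.3K36M cells in Matrigel, placed under the skin of athymic female SCID mice aged 6 to 8 weeks and harvested after 5 to 6 weeks. Each histone construct is represented by 1 line. Both flanks of a mouse were injected and the labels tie no tumor to a mouse, so tumors may share a host, and nothing says that the cultured libraries of a group were separate cultures. The p-values below thus rest on variation from library to library, part or all of which may be technical. RNA was sequenced from whole tumors, so a larger number of cells of a type and more RNA per cell cannot be told apart.

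The alpha globin copies are nearly the same sequence, which limits what can be said of each of them. In GENCODE M21 on GRCm38, Hba-a1 lies on chromosome 11 at 32283672 to 32284486 and Hba-a2 at 32296492 to 32297310, both on the forward strand, and each has a coding sequence of 429 bases. The coding sequences of the 2 copies differ at 1 base, giving 99.8% identity. Counted from the A of the start codon, with Hba-a1 first, the difference is C381T. The stretches of 81 bases around it lie in exon 3 of each gene, at chr11:32284303-32284383 for Hba-a1 and chr11:32297120-32297200 for Hba-a2, and are shown with the differing base in capitals because it is the only coding base that can assign a read to a copy.
Hba-a1: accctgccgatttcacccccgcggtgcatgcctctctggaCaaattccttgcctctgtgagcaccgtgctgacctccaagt
Hba-a2: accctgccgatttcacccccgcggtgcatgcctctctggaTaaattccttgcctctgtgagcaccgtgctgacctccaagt
The authors aligned to mm9, so GRCm38 coordinates locate the sequences only. Alas2 lies on chromosome X at 150547417 to 150570622. The annotated untranslated regions of Hba-a1 and Hba-a2 differ in length, at 196 and 35 bases at the 5′ end and 74 and 90 at the 3′ end. Counted outward from the coding sequence, they are equal over all 35 shared bases at the 5′ end and all 74 at the 3′ end. A value for either copy is therefore uncertain, and the sum of Hba-a1 and Hba-a2 is given beside them.

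The copies also share their upstream sequence. Promoter windows from RefSeq on GRCm38.p6 were found for 3 of the 5 genes, Hba-a1, Hba-a2 and Alas2. Over 247 compared bases upstream of the start, Hba-a1 and Hba-a2 were equal at 247, so 1 copy is printed. The Hba-a2 stretch is chr11:32296242-32296488 and the Alas2 stretch is chrX:150547167-150547374, both on the forward strand and without the bases closest to the start. They are shown because Hba-a1, which shares the first, and Alas2 differed in the cultured K36M lines while both were high in tumors. Capitals mark 3 short motifs searched on both strands: GATAA, the core bound by GATA factors, CACCC, the core bound by KLF factors, and CCAAT, the CCAAT box.
Hba-a2: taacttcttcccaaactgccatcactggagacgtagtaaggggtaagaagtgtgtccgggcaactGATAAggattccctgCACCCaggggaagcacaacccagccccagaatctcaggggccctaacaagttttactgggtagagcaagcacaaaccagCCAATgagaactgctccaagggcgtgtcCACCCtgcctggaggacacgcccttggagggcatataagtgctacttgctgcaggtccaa
Alas2: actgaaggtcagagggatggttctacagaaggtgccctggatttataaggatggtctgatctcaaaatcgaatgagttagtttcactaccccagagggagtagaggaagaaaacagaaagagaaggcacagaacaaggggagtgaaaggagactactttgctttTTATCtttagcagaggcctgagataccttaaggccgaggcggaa
In the 250 bases before the start, Hba-a2 held GATAA 1 time, CACCC 2 times and CCAAT 1 time, and Hba-a1 held the same numbers. Alas2 held GATAA 1 time, on the reverse strand and so printed as its complement. It held CACCC 3 times, all of them in the bases not printed. CCAAT was found 0 times there. Of all 32851 RefSeq windows of this length, 22.6% held GATAA on either strand, 52.0% held CACCC and 33.8% held CCAAT, so these matches are common letters and describe the windows only.

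Values below are normalised estimated counts, made by the authors by dividing each library's estimated reads by its own factor. Library depth ranged from 13993307 to 56041798 estimated reads over 18 libraries. Tumor 6 stood apart from the other tumors, with a chi-square per degree of freedom of 97.8 to 218 against them, where the others gave 22.1 to 71.0 among themselves. Estimated counts came out whole less often in the 4 libraries of both H3.3 lines than in the other 14 (75.4 to 78.7% against 83.4 to 86.4% of values up to 20 reads), a line that comparisons of H3.1K36M cells or tumors with H3.3 lines cross. Its part in the results was not tested. In the HMT siRNA cells the 3 targeted genes fell with no overlap of the groups: Nsd1 from 4723 ± 310 to 3279 ± 125 (SD, n = 3 each), Nsd2, listed as Whsc1, from 1588 ± 21.3 to 1059 ± 54.6, and Setd2 from 3247 ± 145 to 1134 ± 82.0.

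Of the 5 genes, Hba-a1 was the one with a clear signal in cultured K36M cells. The H3.3 wild-type libraries held 2.67 and 8.66, the H3.3K36M libraries 875.5 and 833.5, and the H3.1K36M libraries 247.7 and 230.0. The groups did not overlap, and the order was wild type, then H3.1K36M, then H3.3K36M, with gaps far wider than the spread within a pair. On the log2(value + 1) scale the difference from wild type was 7.17 in H3.3K36M cells and 5.33 in H3.1K36M cells, and H3.1K36M cells were at -1.84 relative to H3.3K36M cells. Ranked from the highest log2 difference, Hba-a1 had rank 15 of 13404 genes in H3.3K36M cells and rank 93 in H3.1K36M cells. Of the genes tested, 38.6% were called higher and 37.5% lower in H3.3K36M cells and 41.1% and 38.4% in H3.1K36M cells, and both comparisons use the same wild-type libraries. Between the K36M lines 68.2% were called, 35.4% higher and 32.8% lower in H3.1K36M cells.

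The wild-type value rests on very few reads. The 2 wild-type libraries held 8 estimated Hba-a1 reads in all, against 2393 in the H3.3K36M libraries and 595 in the H3.1K36M libraries. Per unit of depth this is 162 times as many in H3.3K36M cells and 42.6 times as many in H3.1K36M cells, ratios that a few reads more or less in wild-type cells would move widely.

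The other 4 genes stayed near 0 in every cultured library. Hba-a2 and Hbb-b1 were listed at 0 in all 12 cultured libraries. Hbb-b2 was listed at 0 in 1 library of each histone line and at 1.34, 1.73 and 1.40 in the other. Alas2 held 10.7 and 2.89 in H3.3 wild-type cells, 8.09 and 2.85 in H3.3K36M cells, and 3.35 and 8.63 in H3.1K36M cells, so the 3 lines overlapped. The K36M libraries with Hba-a1 signal therefore held next to no beta globin and no more Alas2 than wild-type cells. Estimated reads went to Hba-a1 alone, although the coding sequences of the copies differ at only 1 base.

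**Figure D1:**
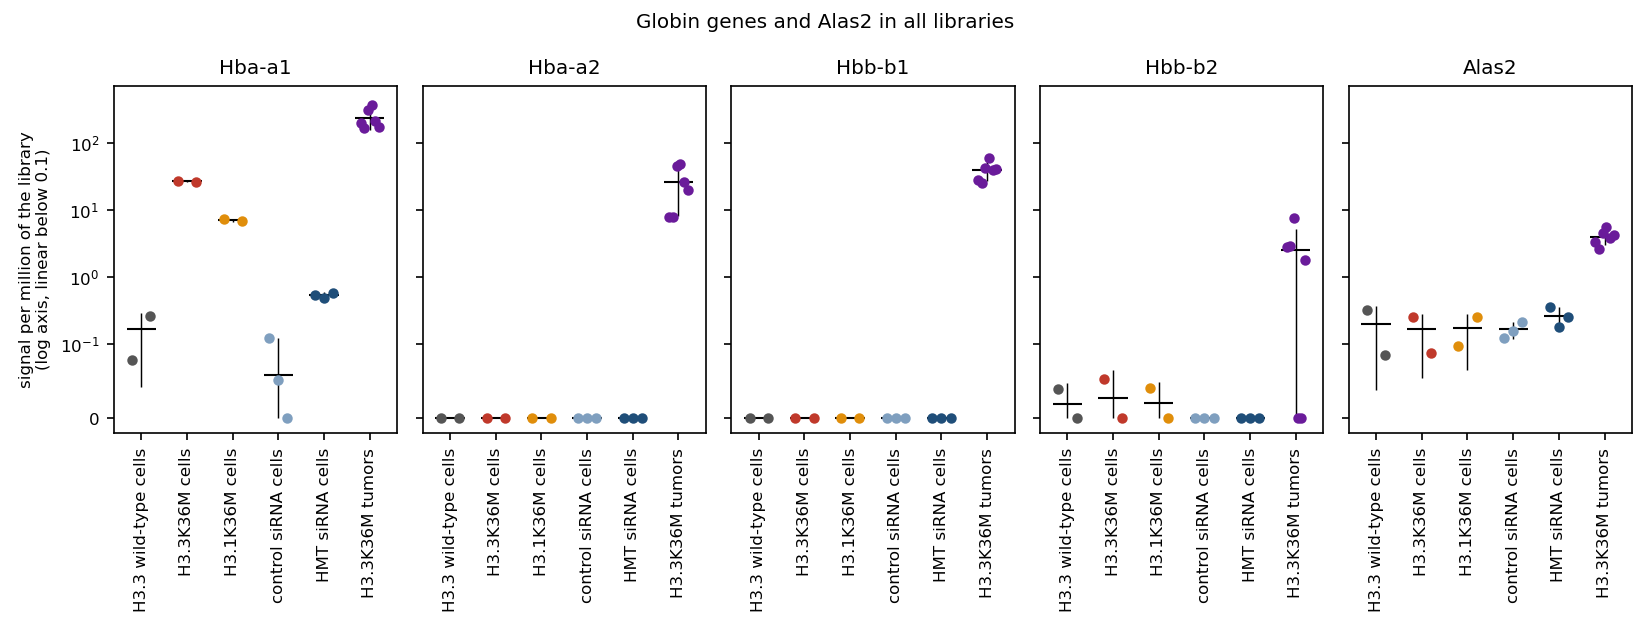
Each panel shows 1 of the 5 genes, with 1 point per library, in the 6 groups. The vertical axis is signal per 1000000 of a library's summed signal (log axis, linear below 0.1), the horizontal line is the group mean and the error bar its SD, not drawn below 0. Hba-a1 is at 26.4 in H3.3K36M cells, 6.96 in H3.1K36M cells and 0.534 in HMT siRNA cells, while the other 4 genes stand out in tumors only.

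To set all 6 groups side by side, each library was expressed per 1000000 of its own summed signal, since the siRNA cells come from a table scaled separately. On this scale Hba-a1 had a mean of 0.0588 ± 0.0626 in control siRNA cells (SD, n = 3), 0.168 ± 0.126 in H3.3 wild-type cells (n = 2), 0.534 ± 0.0512 in HMT siRNA cells (n = 3), 6.96 ± 0.345 in H3.1K36M cells (n = 2), 26.4 ± 0.867 in H3.3K36M cells (n = 2) and 236 ± 81.3 in tumors (n = 6). Control siRNA and wild-type cells were within their spread of each other, and the steps above them were each wider than the spread of the neighbouring groups. Alas2 had means of 0.165 to 0.263 in the 5 cultured groups, within their spread, and 3.98 ± 0.989 in tumors. Hbb-b1 and Hba-a2 reached 38.9 ± 12.1 and 25.8 ± 17.8 in tumors on this scale.

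Hba-a1 was also higher after knockdown of the methyltransferases, which is described here without a p. The HMT siRNA libraries held 13.3, 11.9 and 14.4 and the control siRNA libraries 3.04, 1.25 and 0, with no overlap. Hba-a1 rose by 2.76 ± 0.43 on the log2(value + 1) scale (SE), rank 31 of 12634 genes. Of the genes tested, 32.6% were called higher and 32.8% lower. Hba-a1 reached the minimum level for testing only through the HMT siRNA and H3.3K36M libraries, groups where it is high. The choice of the genes also covered these groups, so no p is given for it. In the fit with no such minimum the difference was the same. The rise stands on 42 estimated reads against 3, or 8.70 times as many per unit of depth. The log2 difference stayed between 2.23 and 3.24 when any 1 library of the siRNA groups was left out, and was 1.03 with a pseudocount of 10 in place of 1. In absolute terms the level after knockdown was far below that of the K36M lines, at 0.534 against 6.96 and 26.4 per 1000000 of summed signal.

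The other members did not follow Hba-a1 after knockdown as far as these depths can show. Alas2 held 8.85, 4.48 and 6.19 in HMT siRNA cells and 3.04, 3.76 and 5.19 in control siRNA cells, groups that overlap, and it was too low for the test. Hba-a2, Hbb-b1 and Hbb-b2 were listed at 0 in all 6 siRNA libraries.

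The alpha globin cluster was then read gene by gene, since the cultured lines showed Hba-a1 without its copy. Its neighbours were taken by their order on the chromosome in RefSeq, after the values of the cluster had been seen. Hba-x, the embryonic alpha-like chain, was listed at 0 in every library. Hbq1b, a theta globin gene next to Hba-a1, was listed at 0 in wild-type cells, at 5.78 and 10.4 in H3.3K36M cells and at 14.4 and 8.63 in H3.1K36M cells. Its log2 difference from wild type was 3.14 ± 0.55 (SE) in H3.3K36M cells and 3.61 in H3.1K36M cells. Under quantile normalisation the first was 0.79. These are descriptions without a p, since the values had been seen. Hbq1b reached the minimum level for a fit through 1 library of each K36M line, so leaving out either of these removes its fit. Hbq1a, the other theta copy, was listed at 0 in wild-type and H3.3K36M cells.

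The expressed genes around the cluster moved by much less than Hba-a1. Nprl3, a regulator of mTORC1 signalling whose introns hold the cluster's enhancers, rose by 0.42 ± 0.06 (limma, adjusted p = 6.85e-06) in H3.3K36M cells and by 1.18 ± 0.06 in H3.1K36M cells. After knockdown it was at 0.04 ± 0.06 (adjusted p = 0.595). Snrnp25, a component of the minor spliceosome, rose in both lines and after knockdown (log2 0.61, 0.70 and 0.49). Mpg, a DNA repair glycosylase, rose in both lines by 0.36 and 0.32 and was at -0.01 after knockdown (adjusted p = 0.905). Rhbdf1, a rhomboid-like protein, was at -0.12, 0.12 and -0.11 and passed no test in these 3 comparisons. On the other side, Ubtd2 fell in all 3 (log2 -0.81, -0.91 and -0.17), and Sh3pxd2b rose in both lines by 0.12 and 0.47 and fell by 0.30 after knockdown. Of these 6 genes outside the globin cluster, Ubtd2 and Sh3pxd2b lie beyond Hba-a2 and the other 4 beyond Hba-x.

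**Figure D2:**
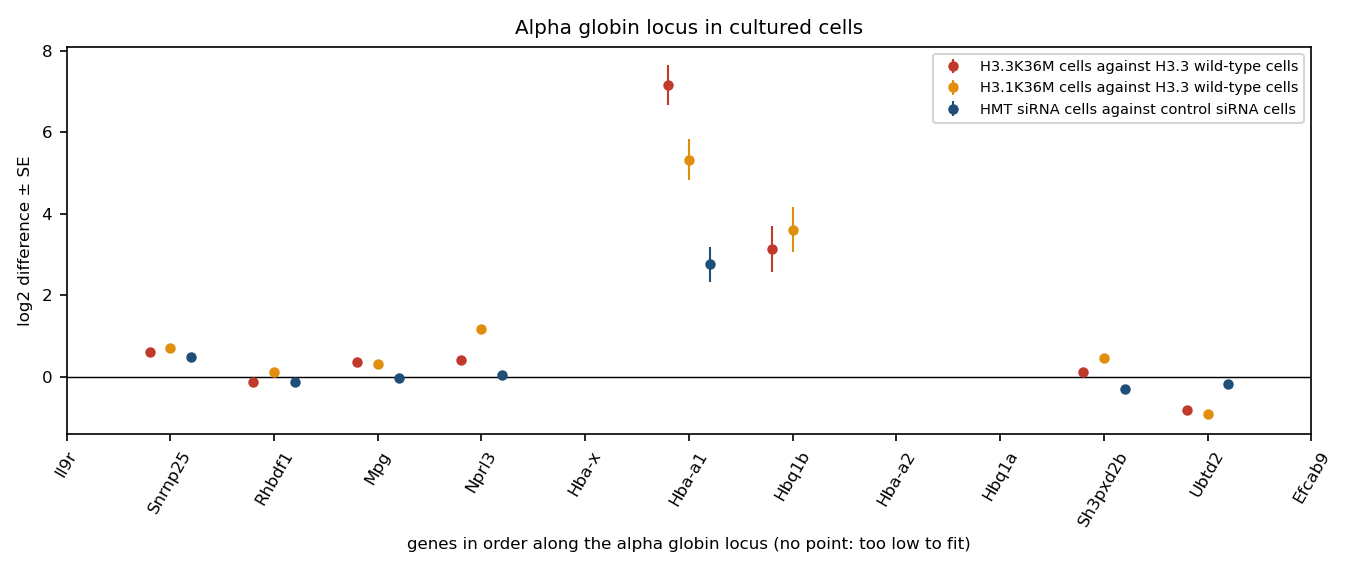
Genes are in order along the alpha globin locus, from left to right, and the vertical axis is the log2 difference with its SE in H3.3K36M and H3.1K36M cells against H3.3 wild-type cells and in HMT against control siRNA cells. Hba-a1 stands at 7.17, 5.33 and 2.76, while Nprl3 next to the cluster stands at 0.42, 1.18 and 0.04; genes without a point were too low to fit.

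Outside the cluster, some genes of the red cell membrane rose in the cultured K36M lines. Add2, the beta subunit of the spectrin-binding protein adducin, rose from 3.45 ± 0.792 in wild-type cells to 599 ± 0.392 in H3.3K36M cells (log2 7.09 ± 0.16). In H3.1K36M cells it rose to 247 ± 3.87 (log2 5.81). Rhag, a membrane channel of the Rh complex, rose from 3.53 ± 3.08 to 30.9 ± 2.05 in H3.3K36M cells (log2 3.01). It was at -0.43 in H3.1K36M cells (limma, adjusted p = 0.462). Add2 and Rhag reached the minimum level for testing only through K36M libraries where they were high, so no p is given for their rises. Gypc, the membrane glycoprotein glycophorin C, rose in both lines (log2 1.40 and 1.17) and after knockdown (0.81). Of 12 membrane genes tested out of 19 listed, 8 rose and 2 fell in H3.3K36M cells, with a median log2 difference of 1.09 where all genes had -0.00 and 76.1% of them were called in either direction. In H3.1K36M cells 6 rose and 2 fell (median 0.08, against 0.02 over all genes and 79.5% called), or 6 and 4 under quantile normalisation or without the first wild-type library. After knockdown 6 of 9 rose and 1 fell (median 0.58, against -0.00 and 65.4% called), led by the ankyrin gene Ank1, which rose from 38.6 ± 11.3 to 94.5 ± 5.37 (log2 1.30, adjusted p = 2.69e-06). The defining band 3 gene Slc4a1 was listed at 0 in the H3.3K36M libraries.

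The erythroid transcription factors and globin repressors include genes with large differences in cultured cells. Tal1, a factor of early blood development, rose by 3.51 in H3.3K36M cells, where it held 15.6 and 18.0 against 0 and 1.44 in wild-type cells. It reached the minimum level for testing only through these H3.3K36M libraries, so no p is given for the rise. In H3.1K36M cells it was at 0.51 (limma, adjusted p = 0.465). Of 12 factors tested, 5 rose and 3 fell in H3.3K36M cells and 4 rose and 4 fell in H3.1K36M cells, and after knockdown 4 of 11 rose and 3 fell, counts near the shares of all genes called. The zinc finger repressor gene Bcl11a is a known silencer of embryonic and fetal globins, and Sox6, a cartilage factor, acts with it in red cell precursors. Sox6 fell from 3042 and 3346 in wild-type cells to 26.0 and 30.4 in H3.3K36M cells (log2 -6.78 ± 0.22, adjusted p = 1.06e-12) and to 7.68 and 3.83 in H3.1K36M cells (log2 -8.94). After knockdown it fell from 580 ± 29.6 to 142 ± 21.2 (log2 -2.03, adjusted p = 2.77e-13). The 9 tested genes of the repressor list rose for 3 and fell for 5 in H3.3K36M cells, where 38.6% of all genes were called higher and 37.5% lower. They rose for 4 and fell for 3 in H3.1K36M cells (41.1% and 38.4% of all genes). After knockdown they rose for 6 and fell for 3 (32.6% and 32.8% of all genes).

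Heme and iron genes other than Alas2 are given as counts, to be read against the shares of all genes called: 38.6% higher and 37.5% lower in H3.3K36M cells, 41.1% and 38.4% in H3.1K36M cells, and 32.6% and 32.8% after knockdown. In the heme synthesis list, which leaves out Alas2, 3 of 8 rose and 4 fell in H3.3K36M cells (median -0.05), 3 rose and 1 fell in H3.1K36M cells (median 0.11), and 2 rose and 3 fell after knockdown (median 0.00). Alas1 held 885 and 822 in the H3.3K36M libraries. The mitochondrial transport list gave 4 up and 4 down of 11 in H3.3K36M cells, 5 up and 1 down in H3.1K36M cells and 6 up and 2 down after knockdown. Slc25a37, the mitochondrial iron importer mitoferrin 1, rose in all 3 (log2 0.48, 1.36 and 0.86). Iron uptake and storage genes gave 3 up and 4 down, 6 up and 2 down, and 4 up and 2 down of 9, and Hfe, a regulator of iron uptake, rose in all 3 (2.09, 1.30 and 1.31). Epor, the erythropoietin receptor, rose in H3.3K36M cells from 25.4 and 26.0 to 78.6 and 74.0 (log2 1.53) and fell in H3.1K36M cells to 15.4 and 14.4 (log2 -0.75).

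A few genes of other blood cells moved beside Hba-a1 in culture. Cd74, which chaperones class II antigen-presenting molecules, rose from 60.9 ± 6.47 to 719 ± 19.1 in H3.3K36M cells and to 221 ± 9.54 in H3.1K36M cells, and the macrophage gene Mpeg1 rose from 0.722 ± 1.02 to 21.6 ± 0.318 and 17.7 ± 6.21. C1qa, which encodes a complement chain of macrophages, was listed at 0 in wild-type and H3.3K36M cells and was at 32.7 ± 14.7 in H3.1K36M cells, against 74870 ± 15859 in tumors. Of 9 macrophage genes tested, 4 rose and 1 fell in H3.3K36M cells, where 38.6% of all genes were called higher and 37.5% lower. In H3.1K36M cells 6 rose and 1 fell (41.1% and 38.4% of all genes), and leaving out either H3.1K36M library left 3 up and 1 down of 6. After knockdown 1 of 6 rose and 1 fell (32.6% and 32.8% of all genes). Of the mast cell and basophil list, Hdc, which makes histamine, rose from 9.06 ± 1.48 to 657 ± 49.3 in H3.3K36M cells (log2 6.04). In H3.1K36M cells it rose to a mean of 118 (log2 3.57 ± 0.16), and after knockdown from 5.43 ± 0.564 to 11.1 ± 3.34 (log2 0.87). No p is given for the knockdown, where Hdc reached the minimum level only through HMT siRNA and H3.3K36M libraries. The tryptase gene Tpsab1 rose in both lines (log2 4.66 and 3.47), and these were the 2 of 9 genes tested there. Their list summed to 9.35 to 10.1 in wild-type, 126 to 150 in H3.1K36M and 666 to 740 in H3.3K36M cells, most of it Hdc. This is the order of the Hba-a1 levels. Fcer1a and Ms4a2, subunits of the mast cell IgE receptor, were listed at 0 in these lines. The summed macrophage list was 1046 to 1087 in H3.3K36M cells. Hbb-b1, at a mean of 1456 in tumors, was listed at 0 in the K36M lines. Whether any of these genes or cells had a part in the Hba-a1 level was not tested.

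In tumors 4 of the 5 genes were above every cultured library of the same table, and Hbb-b2 was so in 4 of 6 tumors. In that comparison 41.0% of the genes tested were called higher than in H3.3K36M cells and 34.2% lower (6086 and 5077 genes), a balance that turned to 4906 higher and 5929 lower under quantile normalisation. Since the genes were picked on these levels, nothing is read from that count. Tumor 4 held the highest value of 4 of the 5 genes and Hbb-b2 was listed at 0 in it.

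Alpha globin was already present in the injected line and was higher in each of the 6 tumors. Hba-a1 held 7430, 6211, 11661, 14809, 7396 and 5797 in tumors 1 to 6, a mean of 8884 ± 3573 (SD, n = 6) against 854 ± 29.8 in H3.3K36M cells (n = 2). The lowest tumor was well above both cell libraries, and the log2 difference was 3.29. Hba-a2 was listed at 0 in the cells and held 288, 296, 1670, 2000, 927 and 662 in the tumors. Tumors 1 and 2 were low and tumors 3 and 4 high. Hba-a2 made up 3.73, 4.55, 12.5, 11.9, 11.1 and 10.2% of the summed alpha copies, so tumors 1 and 2 also had the lowest shares. With copies so alike in sequence this share is uncertain. The alpha sum was 7718, 6507, 13331, 16809, 8323 and 6459.

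Beta globin was a signal of the tumors and not of the injected cells. Hbb-b1, the major adult beta chain gene, was listed at 0 in cells and held 1054, 951, 1557, 2436, 1382 and 1357 in tumors (mean 1456 ± 530). Hbb-b2, the minor copy, held 104, 108, 280, 0, 0 and 60.1, a mean of 92.1 ± 104, so its groups overlap. The pair summed to 1158, 1059, 1837, 2436, 1382 and 1417. Hbb-b1 and Hbb-b2 are near-identical copies whose reads can be split wrongly, and the 0 of Hbb-b2 in tumors 4 and 5 is an estimate of that split.

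Alas2 held 124, 98.5, 169, 225, 134 and 141 in the tumors, a mean of 149 ± 43.7, against 8.09 and 2.85 in H3.3K36M cells. The tumor values stand on 93 to 222 estimated reads, and the log2 difference was 4.61. Per kilobase of coding sequence, tumors had 20708 ± 8328 for Hba-a1, 2270 ± 1670 for Hba-a2 and 84.2 ± 24.8 for Alas2, while H3.3K36M cells had 1992 ± 69.4 for Hba-a1. This length leaves out the untranslated regions, so genes can be compared only roughly. The 4 globin genes together took 0.0203 to 0.0471% of a tumor library's summed signal.

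**Figure D3:**
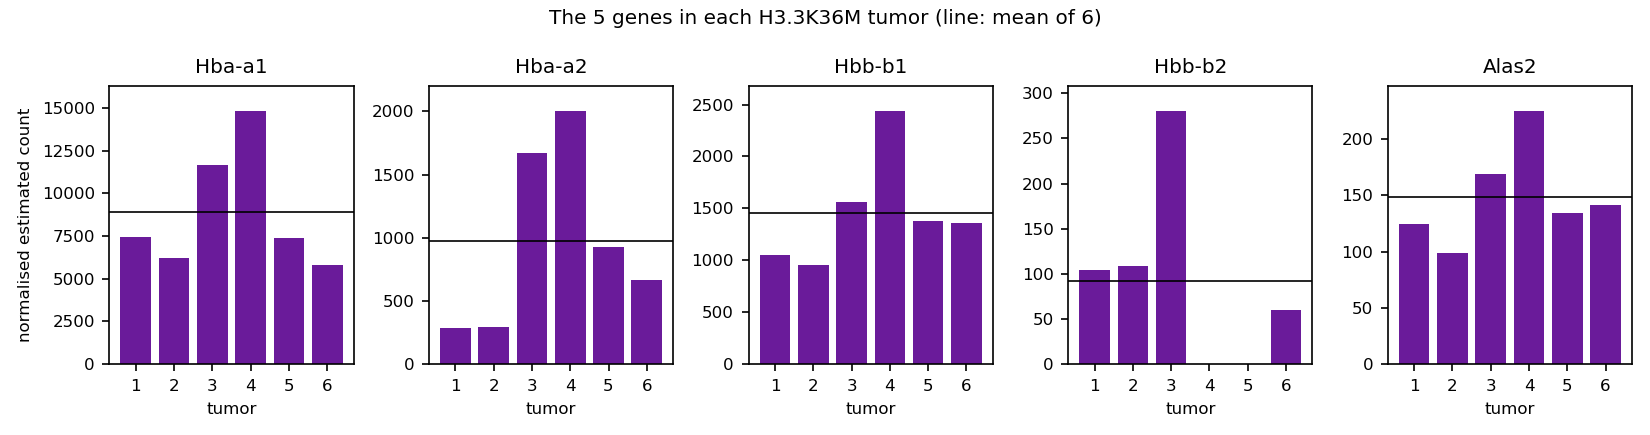
Each panel gives 1 gene in the 6 H3.3K36M tumors as normalised estimated counts, with bars from 0 and a line at the mean of 6. Tumor 4 is highest for Hba-a1 (14809), Hba-a2 (2000), Hbb-b1 (2436) and Alas2 (225), and Hbb-b2 is at 0 in tumors 4 and 5.

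Between tumors, the beta globin sum and Alas2 ran most closely together, while Hbb-b2 did not run with the other members. Over the 6 tumors on the log2(value + 1) scale, Pearson's r of the beta sum with Alas2 was 0.98 (Spearman's rho 1.0), and it was 0.99 without tumors 2 and 4, those farthest from the median beta sum. The alpha sum gave r = 0.92 with the beta sum and 0.90 with Alas2 (rho 0.66 for both), but these rested on tumors 3 and 4, without which r was 0.23 and 0.35 over 4 tumors. The r of the alpha sum with depth was -0.08. These are descriptions over 6 tumors that may share hosts, with normalisation in common, and carry no p.

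**Figure D4:**
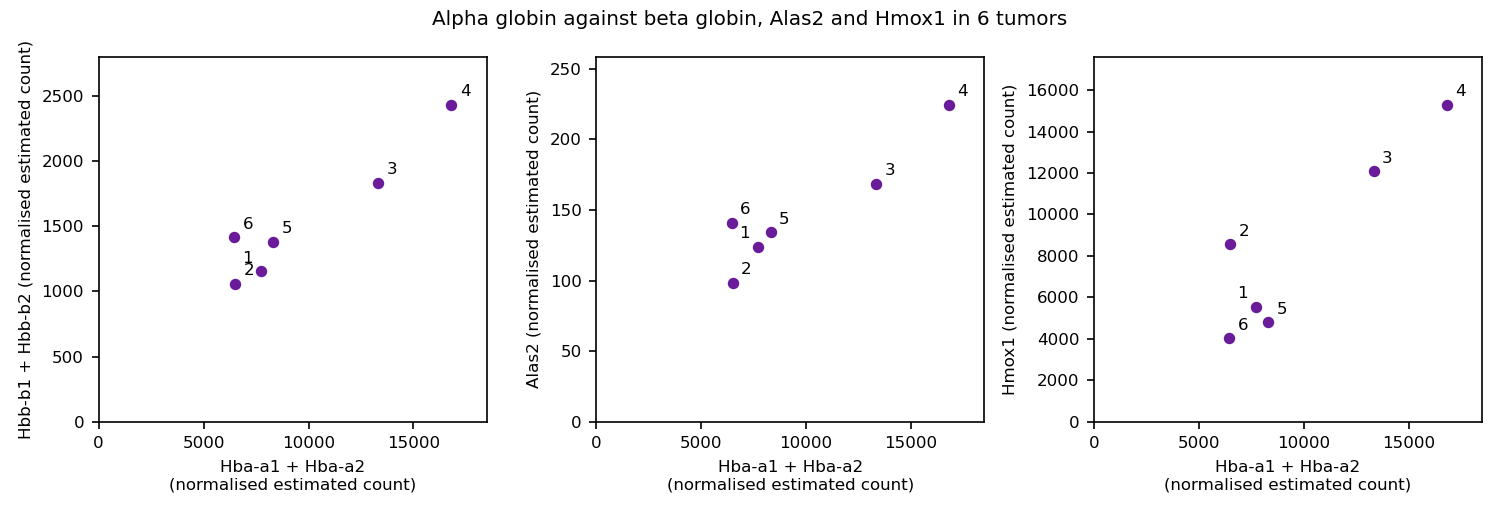
Each point is 1 of the 6 tumors, with the summed alpha globin signal on the horizontal axis and the beta globin sum, Alas2 or Hmox1 on the vertical axis, all as normalised estimated counts. Tumors 3 and 4 lie at the upper right of each panel and the other 4 tumors lie close together at the lower left, without an order among them for Hmox1.

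Among genes that define other cells or processes, Hmox1, the heme-degrading oxygenase, held 5545, 8563, 12089, 15304, 4799 and 4038 and gave r = 0.83 with the alpha sum, which was -0.25 without tumors 3 and 4. Pf4, a chemokine stored in platelets and also made by macrophages, held 4607, 4340, 5568, 6659, 5134 and 1952, in the same order as the alpha sum (rho 1.0, r = 0.71, and 0.69 without tumors 3 and 4). The endothelial list ran opposite (r = -0.82, rho -0.94, and -0.41 without tumors 3 and 4), with Cdh5, the cadherin of vessel walls, at r = -0.74 (-0.68 without them) and Pecam1 at r = -0.87 (0.06 without them). The macrophage list was at r = 0.40. Slc4a1 did not run with the alpha sum (r = -0.53).

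Which genes varied most like the members depended on how the members were combined. The mean log2(value + 1) of all 5 genes was compared over the 6 tumors with 14122 genes, and the highest r belonged to F7 (0.98), Gm10406 (0.98), Mkl2 (0.98), Nudt21 (0.96), Cdnf (0.96), Hoxb7 (0.95), Ubp1 (0.95), Kif2a (0.93), Ifrd1 (0.93) and Zfp449 (0.93). The lowest belonged to Folr1, Wnt5b and Ccr10 (-0.99 each) and Gstt1 and Lrfn1 (-0.97 each). This mean was set by the 2 zeros of Hbb-b2, whose own r with it was 0.74, while Hba-a1 had 0.31 and Hbb-b1 0.07. An index of the alpha sum, the beta sum and Alas2, chosen after this was seen, gave r of 0.95 for Hba-a1, 0.91 for Hba-a2, 0.96 for Hbb-b1, 0.98 for Alas2 and -0.43 for Hbb-b2. With it the 10 highest were Pgrmc1, Rab1, Tmem55a and Rfesd (0.99 each) and Pcmtd1, Gjc3, Rab3a, Zfp488, Lyrm1 and Atp6v0d2 (0.98 each), and the 5 lowest were Vti1a and Brca2 (-0.99 each) and Zkscan6, Odf2 and Nup210 (-0.98 each). These r values rest on 6 tumors and were picked as the extremes of many genes, so nothing is read from the names.

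Defining genes of red cell precursors were scarce in the tumors. The membrane gene Slc4a1, which encodes the anion exchanger band 3, held 36.9, 7.23, 9.52, 8.10, 11.6 and 108 in tumors and 0 in H3.3K36M cells. Its rise was 4.21 ± 0.96 (SE), given without a p since it reached the minimum level for testing only through tumors. Tumor 6 held most of it although its alpha sum was the lowest. Klf1, the master factor of red cell genes, was at 2.01 to 7.23 and Gata1 at 0 to 4.08, both too low to test. Rhag fell to 3.90 ± 2.34 from 30.9 ± 2.05 in H3.3K36M cells (log2 -2.86). It reached the minimum level only through these cells, so no p is given for it either.

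**Figure D5:**
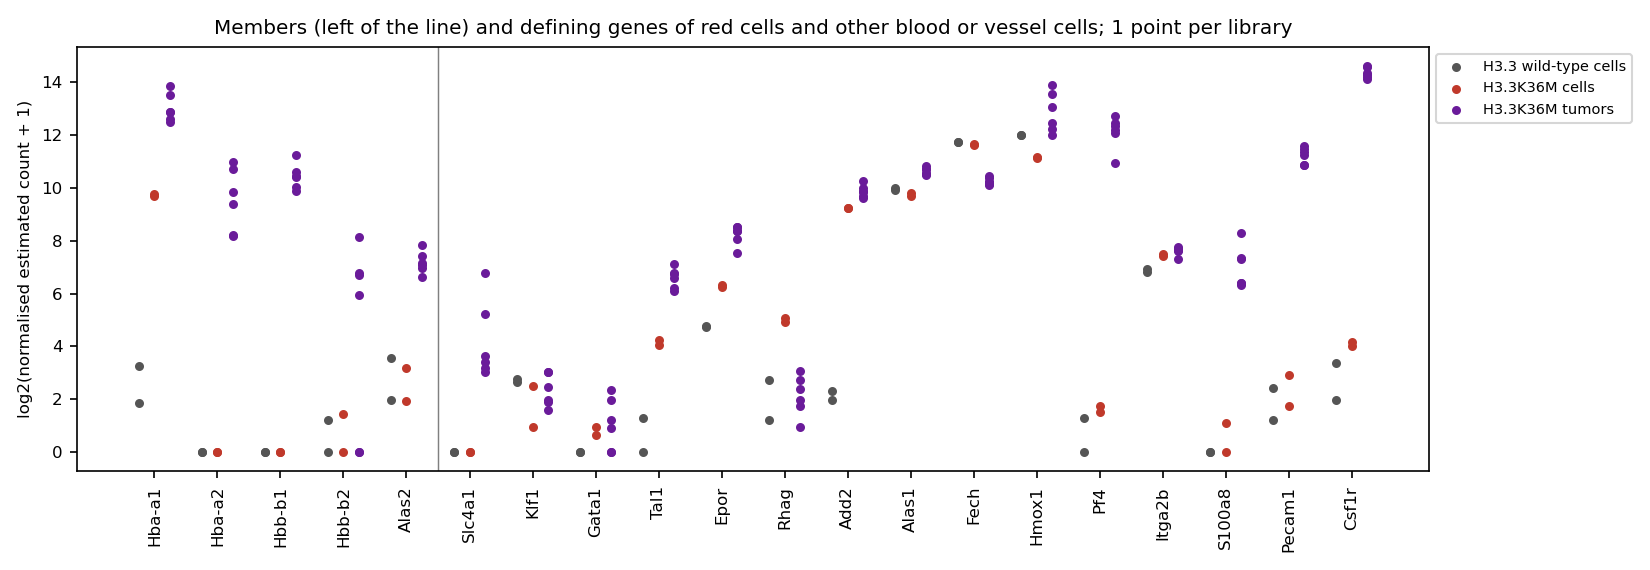
Points are libraries of H3.3 wild-type cells, H3.3K36M cells and H3.3K36M tumors on the log2(normalised estimated count + 1) scale, with the 5 members left of the line and genes of red cells, heme, platelets, neutrophils, vessels and macrophages to its right. The tumors are high for the globins, Alas2, Hmox1, Pf4, Pecam1 and Csf1r, while Klf1 and Gata1 stay near the floor.

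The lists for red cells split in both directions in tumors. Of 15 membrane genes tested out of 19, 5 rose and 3 fell with a median of 0.48, where the median over all genes was 0.14 and 75.2% of genes were called in either direction. Under quantile normalisation, which moved the median of all genes to -0.12, the list gave 3 up and 6 down with a median of -0.22, so its direction depended on the scaling. It gave 4 up and 1 down of 14 without the first H3.3K36M cell library and 5 up and 1 down without the second. Among the chaperone and enzyme genes 5 of 7 rose and 1 fell, led by Car2, a carbonic anhydrase, which rose from 5.92 ± 1.02 to 156 ± 107 (log2 4.31). Genes of reticulocyte maturation gave 5 up and 1 down of 10, with Tspan33 at 4.01 and the nuclear exporter Xpo7 at -1.23. Of 14 erythroid factors 6 rose and 5 fell. Lyl1 (8.07), Lmo2 (6.17) and Tal1 (2.44 ± 0.30, adjusted p = 6.6e-05) rose, and these are also expressed by vessel and blood cells, while Foxo3 fell by 2.31. Epor rose from 76.3 ± 3.22 to 306 ± 70.0 (log2 1.95 ± 0.26, adjusted p = 0.000116). Its list, of erythropoietin and stem cell factor signalling, gave 3 up and 5 down of 9, with Kit at 7.33 and its ligand Kitl at -3.04. In the repressor list 5 of 11 rose and 5 fell, or 3 and 4 without the second H3.3K36M cell library. Sox6 fell further, by 2.38, and the lymphoid factor Ikzf1 rose by 8.24.

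Heme synthesis genes other than Alas2 also moved both ways in tumors, 5 up and 2 down of 8 (median 0.65). Over all genes tested in tumors, 41.0% were called higher and 34.2% lower, with a median of 0.14. Alas1, the enzyme form of other tissues, rose from 853 ± 44.3 to 1587 ± 151 (log2 0.89). Alad, the second enzyme of the pathway, rose by 1.47 and Ppox by 1.29. Cpox fell by 1.97, and Fech, which inserts iron into the ring, fell from 3195 ± 16.5 to 1219 ± 109 (log2 -1.39 ± 0.11, adjusted p = 2.89e-06). Heme breakdown and scavenging genes gave 8 up and 1 down of 9 (median 1.68), or 6 up and 1 down under quantile normalisation. Hmox1 rose from 2255 ± 18.1 to 8390 ± 4504 (log2 1.72 ± 0.47, adjusted p = 0.00829), and Cd163, the macrophage receptor for hemoglobin bound to haptoglobin, rose by 6.52. Iron genes gave 4 up and 4 down of 9, and 1 up and 4 down under quantile normalisation, with Hfe up by 4.46 and the transferrin receptor Tfrc down by 1.73. Mitochondrial transport genes gave 6 up and 3 down of 11, and only 3 up without either 1 of the H3.3K36M cell libraries, with the iron-sulfur scaffold Iscu at 1.22.

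Of the 8 other globin genes, 3 could be tested in tumors and 2 rose, where 41.0% of all genes tested were called higher. Cygb, the cytoglobin of connective tissue cells, was the one expressed in all groups, at 88.6 ± 6.85 in wild-type, 456 ± 45.4 in H3.3K36M and 57.3 ± 14.7 in H3.1K36M cells and 502 ± 116 in tumors. It rose by 2.35 in H3.3K36M cells (limma, adjusted p = 4.35e-09) and fell by 0.64 in H3.1K36M cells. Mb, the oxygen store of muscle, rose from 2.58 ± 0.379 to 195 ± 187 (log2 5.33 ± 0.74), with a wide spread between tumors. It reached the minimum level for testing only through tumors, so no p is given. Ngb, neuroglobin, rose from 4.31 ± 2.07 to 26.2 ± 7.22 (log2 2.37), a call lost under quantile normalisation. Hbq1b was at 0 to 8.16 in tumors. The embryonic beta-like genes Hbb-bh1 and Hbb-y did not exceed 3.04 and 1.44 in any library.

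Markers of blood and endothelial cells rose in the same tumors as the globins, while pericyte genes were mixed. Over all genes tested there, 41.0% were called higher and 34.2% lower. The 16 macrophage genes rose without exception, and their summed level went from 1046 to 1087 in H3.3K36M cells to 294686 to 431476 in tumors. Endothelial genes gave 14 up and 1 down of 16, with the sum going from 4072 to 4228 up to 27523 to 45437. Pecam1 rose by 8.91 and Cdh5 by 7.01. Pericyte genes gave 5 up and 3 down of 8, and their sum was lower in tumors (40032 to 42390 in cells and 24187 to 31341 in tumors). Platelet genes gave 5 up and 0 down of 9, or 3 up under quantile normalisation (sum 708 to 743 in cells and 2882 to 8097 in tumors), with Pf4 at 10.48, while Itga2b, the defining platelet integrin, did not pass the test. Neutrophil genes gave 5 up and 0 down of 6 (sum 447 to 532 and 1993 to 3030), with S100a9 at 7.41 and S100a8 at 6.45. The part of these cells in the globin levels was not tested. Of 8 serum protein genes of liver only Serpina1a reached the minimum level for testing, and it fell from 69.0 ± 10.2 in cells to 11.9 ± 6.60 in tumors.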

How the data were processed

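RNA from 12 cultured libraries and 6 tumors was isolated with Trizol and made into TruSeq libraries, per the labels' protocols. The submitters' processing notes name Bowtie 1.0.0, RSEM 1.2.12 and mm9. What the authors deposited is 3 tables (20325 genes, 26 columns in all) of a signal, estimated read counts divided by a factor per library and brought to a common median; the tables were scaled separately, so comparisons stay within a table unless values per 1000000 of summed signal are given. With a tolerance of 0.01, 35.3 to 56.0% of values came out as whole reads, so whole reads are not claimed and no count test was run.

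The 5 members and the gene lists were chosen with earlier results of these data known. Two-sided tests were made on log2(value + 1) with limma 3.58.1 (R 4.3.3), whose eBayes step had its trend and robust options on. P-values were adjusted by Benjamini-Hochberg over all genes tested, at a threshold of 0.05. This scale understates changes of low genes. Genes tested reached 10 in as many libraries as the smaller group holds. Tumors and H3.3K36M cells were fitted in 8 libraries, the 3 histone lines in 6 and the siRNA groups in the 10 cultured libraries of their table. The script recovered seeded changes in simulated data, but only genes well above the minimum level were seeded. This check therefore does not cover genes as low as Hbq1b or Hba-a1 after knockdown. Levels and figures were made with matplotlib 3.10.9, scipy 1.17.1, pandas 2.3.3 and numpy 2.4.6 in Python 3.11.15.

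The 19 lists hold 222 genes, 217 of them in the tables. Named are the members, up to 4 genes of a list with the largest change past the threshold, genes called defining, neighbours of the alpha globin cluster, and the genes most and least like the members over tumors among those reaching 10 in at least 3 tumors. Slc25a37, Alas1, Pecam1, Gypc after knockdown and some others within a list's count are named as examples. Replicate numbers did not pair the libraries. Replicates differed by more than sampling noise, and none was a repeat deposit. Alternatives were other pseudocounts, filters, quantile normalisation, plain eBayes, other tables and fits, a replicate block and leaving out each library.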

Additional observations from a re-analysis of the deposited data

Results flagged for a closer look

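For groups of 4 to 10 samples, a value whose gap to its nearest neighbour is large against the range of the group is given here; 63 sets of tumor values were looked at, and chance alone gives about 1 in 20. None of the 5 members was among the 6 found. Slc4a1 was highest in tumor 6 at 107.8, with the next tumor at 36.9, and Cdh5 was highest in the same tumor at 22893, with the next at 10731. Tumor 1 held the highest S100a8 (310.4, next 161.8) and the highest S100a9 (307.8, next 166.0). The summed genes of erythropoietin and stem cell factor signalling reached 6737 in 1 tumor, with the next at 6119, and the summed pericyte genes were lowest at 24187, with the next at 29598.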

How the results depend on the processing

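No log2 difference of the members described changed sign under the alternatives run, and the counts of all genes called higher and lower each stayed within 1.5 times. Which of these counts was larger turned in tumors under quantile normalisation (4906 higher, 5929 lower), in H3.3K36M cells with a filter of 50 (4468 and 4791) or without either H3.3K36M library, between the K36M lines with no filter (4681 and 4838), and after knockdown with no filter (4177 and 4133), a filter of 50 (3938 and 3868) or without control siRNA library 2 or 3. With a pseudocount of 10 the log2 difference of Alas2 in tumors was 3.34 in place of 4.61, and that of Hba-a1 was 5.81 in H3.3K36M and 4.02 in H3.1K36M cells; with quantile normalisation Alas2 was at 3.27 and Hba-a1 in H3.1K36M against H3.3K36M cells at -1.76. Over the 6 tumors, Spearman's rho of the alpha sum was 0.66 with the beta sum and 0.66 with Alas2. Leaving out 1 tumor gave r of 0.81 to 0.99 with the beta sum, 0.75 to 0.98 with Alas2 and 0.67 to 0.98 with Hmox1, lowest without tumor 4 in each case. The r of Hba-a1 with the profile of the members went from 0.31 to 0.95 with the added index, in which Hbb-b2 enters only through the beta sum. For the other values the cause was not tested. After knockdown a filter of 50 gave Hba-a1 no value. Apart from the fit with no minimum level, Hba-a1 entered the other fits of the knockdown through groups where it is high.

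Libraries of a number share only that number: deviations of same-numbered libraries correlated at -0.019 to 0.075 between histone lines and at 0.026, 0.261 and 0.113 between siRNA groups. With the replicate number as a block, Hba-a1 after knockdown was at 2.76, and 4196 genes were called higher and 4212 lower. The block gave 6761 and 5676 in tumors, 5161 and 5005 in H3.3K36M cells, 5490 and 5114 in H3.1K36M cells, and 4717 and 4358 between the K36M lines. Wild-type Hba-a1 and all cultured Alas2 values stand on few reads, and the globin copies cannot be separated reliably.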
